A study of Danio rerio with 7 samples.

Results

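The right part of zebrafish chromosome 4, defined here as every deposited interval on that chromosome with a start above position 35800000 of assembly Zv8, held 342 of the 38913 intervals of the series. These were 319 H3K4me3 domains, 14 H3K27ac domains, 4 Cdx4 peaks and 5 Sall4 peaks. The highest position reached by any list on chromosome 4 was 71568498, so the boundary lay close to the middle of the chromosome and the right part spanned 35.77 Mb. The left part, up to the boundary, held 1074 intervals and the other 24 chromosomes held 35140. The intervals came from chromatin immunoprecipitation and sequencing (ChIP-seq) of whole wild-type Tu zebrafish at bud stage, when gastrulation ends. Cdx4 and Sall4 were Myc-tagged and precipitated through the tag, while H3K27ac and H3K4me3 were precipitated with antibodies to the marks. Per the labels, embryos either received mRNA at the 1-cell stage or were not injected, without a statement for each library. Each target had 1 library, and the 3 inputs were not analysed here. The region was chosen from the interval counts of these same libraries, so its values are given as a description without tests. Intervals printed beside values cover counting error only, and in whole embryos fewer cells with a mark and less of the mark per cell cannot be told apart.

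H3K4me3 is a methylated histone placed by the SET1 and MLL enzyme complexes around the start sites of active genes and of genes held ready for use. H3K27ac is an acetylated histone placed by p300 and CBP at active promoters and enhancers, and at many active promoters it lies beside H3K4me3. Cdx4 is a homeodomain factor of the caudal family that patterns the posterior body and the blood-forming mesoderm, and Sall4 is a zinc finger factor of early progenitor cells. In later zebrafish assemblies an arm of chromosome 4 is known to be heterochromatic, late to replicate, poor in ordinary protein-coding genes and rich in repeated gene families, among them zinc finger genes, NLR-type immune sensor genes, and ribosomal and spliceosomal RNA genes. Positions of Zv8 were not matched to those genes here, so no domain below is assigned to a gene.

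Intervals of all 4 lists were sparser in the right part of chromosome 4 than on the rest of the chromosomes, and by very different amounts. H3K4me3 domains numbered 8.92 per Mb there, 15 per Mb in the left part and 13.9 per Mb on the other 24 chromosomes. Their density was 0.642 times that of the other chromosomes (exact 95% interval 0.573 to 0.717). H3K27ac domains numbered 0.391 per Mb in the right part, 3.58 per Mb in the left part and 3.30 per Mb elsewhere, a ratio to the other chromosomes of 0.119 (0.0649 to 0.200). The factors were sparser still. Cdx4 peaks numbered 0.112 per Mb, against 3.85 per Mb in the left part and 3.73 per Mb on the other chromosomes, a ratio to the other chromosomes of 0.0300 (0.00817 to 0.0769). Sall4 peaks numbered 0.140 per Mb, against 7.57 and 7.21 per Mb in the left part and on the other chromosomes, and their ratio was 0.0194 (0.00630 to 0.0453). Lengths run to the last position any list reaches and include any unsequenced stretches of the assembly, whose sizes were not used here.

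**Figure D1:**
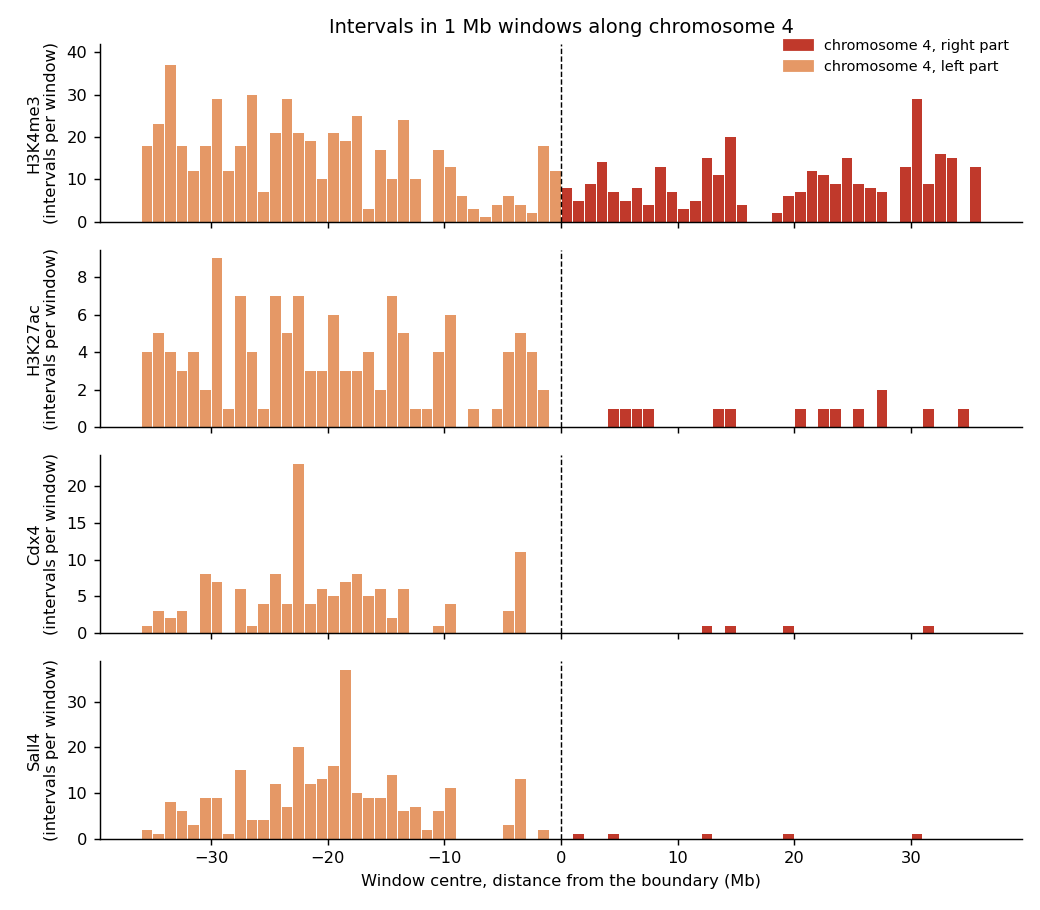
Number of intervals of each list (vertical axes) in windows of 1 Mb along chromosome 4, by the distance of the window centre from the boundary in Mb (horizontal axis); bars right of the dashed line are the right part and bars left of it the left part. H3K4me3 domains continue across the boundary, while the right part holds 14 H3K27ac domains, 4 Cdx4 peaks and 5 Sall4 peaks in all.

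The same comparison can be made with the part of each other chromosome beyond its midpoint. In those 24 parts H3K4me3 density ran between 9.26 and 18.3 per Mb with a median of 13.6, all above the 8.92 per Mb of chromosome 4. For H3K27ac they ran between 2.58 and 6.04 per Mb, for Cdx4 between 2.33 and 8.55, and for Sall4 between 4.96 and 13.7, again all above chromosome 4. The gap to the nearest chromosome was narrow for H3K4me3, where chromosome 7 came next, and wide for the other lists. The right part of chromosome 4 had 22.8 H3K4me3 domains for each H3K27ac domain, against 3.04 to 5.81 beyond the midpoints of the other chromosomes.

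**Figure D2:**
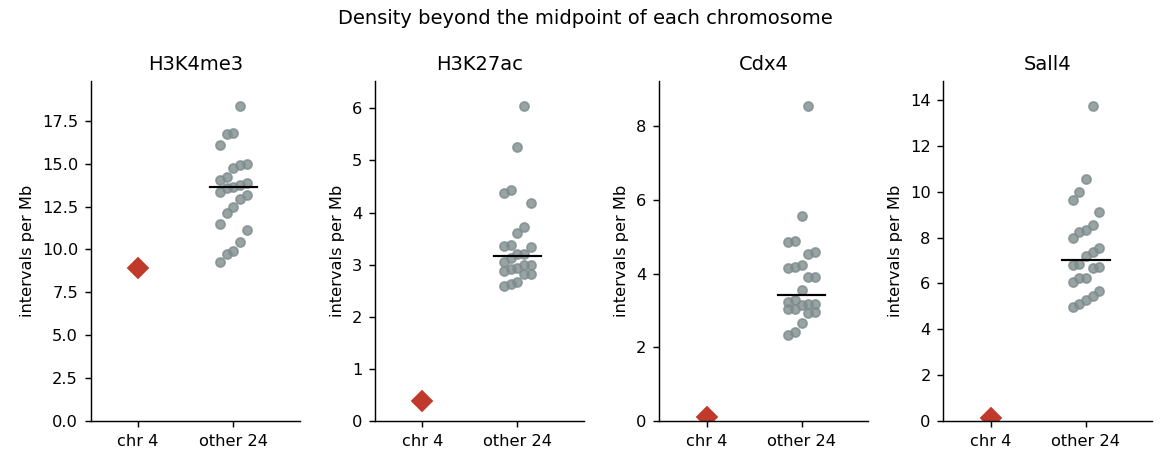
Intervals per Mb (vertical axes, linear and starting at 0) beyond the midpoint of each chromosome, 1 panel per list; the diamond is chromosome 4, each circle is 1 of the other 24 chromosomes and the line is their median. The diamond lies below every circle in all 4 panels, just below the lowest at 8.92 against 9.26 per Mb for H3K4me3 and far below it for H3K27ac, at 0.391 against 2.58 per Mb.

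The change along chromosome 4 did not begin at the boundary. Up to 27 Mb, a position set after the values were seen, the chromosome carried 17.8 domains of H3K4me3, 4.11 of H3K27ac, 4.59 peaks of Cdx4 and 9.37 of Sall4 per Mb. Between 27 Mb and the boundary these densities were 6.36, 1.93, 1.59 and 2.05 per Mb, so H3K4me3 was sparser over this stretch as a whole than beyond the boundary. Intervals were uneven within it. The nearest 1 Mb windows before the boundary held 18 and 12 H3K4me3 domains, and the nearest beyond it 8 and 5. Most factor peaks of the stretch lay in adjacent 1 Mb windows, with 3 and 11 of its 14 Cdx4 peaks and 3 and 13 of its 18 Sall4 peaks. The last Cdx4 peak before the boundary ended at 32624354, the last Sall4 peak at 33900050 and the last H3K27ac domain at 34369499, which was 1.43 Mb short of it. Beyond these positions Cdx4 resumed at 47969787, Sall4 at 37650188 and H3K27ac at 40547500. The stretch without a Cdx4 peak was 15.3 Mb long, and the longest on any other chromosome was 6.21 Mb, on chromosome 1. The longest stretch without a Sall4 peak, 10.6 Mb between 55406833 and 65971179, also lay in the right part, and the longest elsewhere was 4.31 Mb on chromosome 5. For H3K27ac the longest stretch ran across the boundary for 6.18 Mb, against 4.83 Mb on chromosome 24. The last H3K4me3 domains before the boundary started at 35497100, 35587900 and 35718800 with widths of 905, 699 and 2099 bp and score ranks of 63.1, 51.8 and 68.7. The next ones beyond it started at 35977800, 36013600 and 36441600 with widths of 200, 200 and 299 bp and ranks of 18.6, 11.2 and 19.3. A score rank is the percentile of the authors' score within the list.

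Taken over the whole right part, H3K4me3 domains were narrow. Their median width was 499 bp (95% interval 418 to 499, quartiles 299 and 699, n = 319), against 599 bp (499 to 699, n = 537) in the left part and 699 bp (699 to 699, n = 17357) on the other chromosomes. The widest was 1444 bp. None of the 319 exceeded 1500 bp, which allows a share of up to 0.940%, where 7.72% of the whole list did (9.68% in the left part and 7.99% on the other chromosomes). Domains over 1000 bp made up 10.0% of the right part (32 of 319), against 26.5% of the whole list. At the narrow end the parts were closer, with 28.5% of the right part at 300 bp or less (91 of 319) and 23.4% of the whole list. Beyond the midpoints of the other 24 chromosomes the median width was never below 599 bp and the share over 1500 bp never below 4.58%. In 4 stretches of equal length, from left to right, the right part had median widths of 395.5, 399, 399 and 799 bp. By its median, the stretch nearest the chromosome end was thus not narrow.

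Scores followed the widths. The median score rank was 37.7 in the right part (35.1 to 41.3), 48.3 in the left part (43.8 to 51.9) and 50.9 on the other chromosomes (50.1 to 51.6), and the highest rank reached in the right part was 93.6. Ranks above 75 were held by 34 of 319 domains (10.7%, exact interval 7.49 to 14.6%), against 25% of the whole list by construction. Low scores were not in excess, since 84 of 319 (26.3%) ranked at 25 or below, again against 25%. The shortfall was therefore at the top of the score range. In the 4 stretches of equal length, 2.78, 3.03, 1.30 and 27.9% of the domains ranked above 75. The stretch nearest the chromosome end thus had no such shortfall. At equal width the ranks of the parts were close. Among domains of 301 to 500 bp the median rank was 36.0 in the right part (33.9 to 38.1, n = 94) and 36.1 on the other chromosomes (n = 3053). Among domains of 1001 to 1500 bp it was 79.2 (74.5 to 83.9, n = 32) and 79.6 (78.8 to 80.4). The interval of the right part contained the median of the other chromosomes in every class up to 1500 bp except domains of 300 bp or less, at 17.9 (15.3 to 20.0) against 20.2 (19.7 to 21.0). A score of exactly 0 was held by 5 of 319 domains (1.57%), against 5.81% of the whole list.

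**Figure D3:**
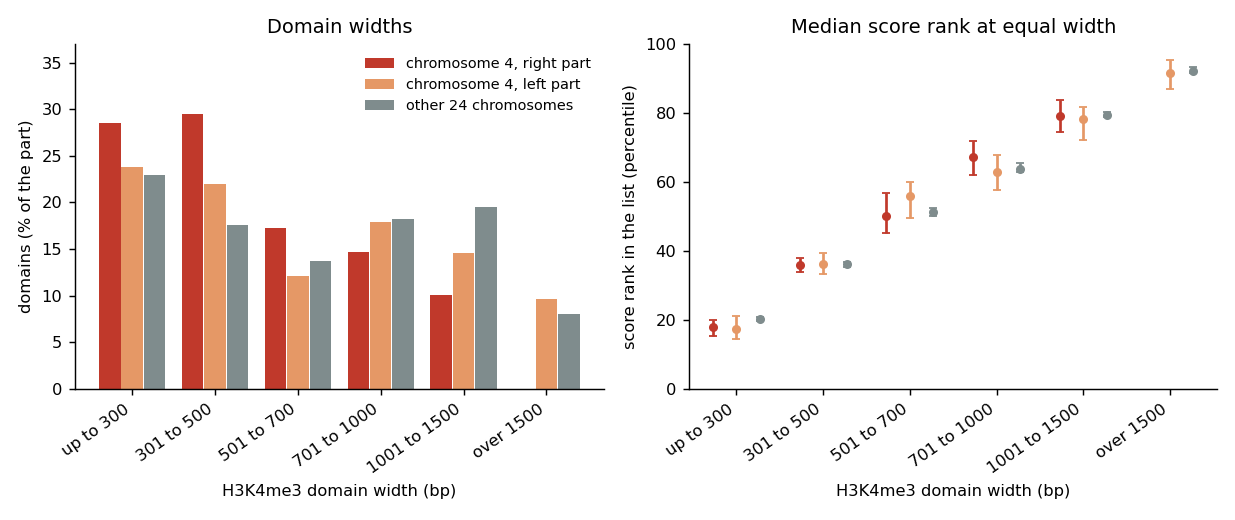
Left, share of H3K4me3 domains of each part in % (vertical axis) by width class in bp (horizontal axis); right, median score rank in percentiles of the whole list with its binomial 95% interval (vertical axis) in the same width classes. The right part of chromosome 4 has no bar over 1500 bp, where the left part has 9.68% and the other chromosomes 7.99% of their domains, while at equal width the median ranks of the parts lie close together, such as 36.0 and 36.1 for 301 to 500 bp.

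Over the whole right part, H3K4me3 domains lay farther from each other than on the other chromosomes. The median distance from the end of a domain to the start of the next was 41.1 kb (95% interval 33.9 to 53.3, quartiles 16.0 and 127 kb, 318 gaps). It was 21.6 kb in the left part (15.7 to 27.4) and 22.3 kb on the other chromosomes (21.4 to 23.2). Beyond the midpoints of the other 24 chromosomes the median distance ran between 15.8 and 36.7 kb. The wide median spacing did not hold along the whole right part. In 4 stretches of equal length, from left to right, the median distance was 73.4, 51.5, 57.2 and 20.2 kb. The stretch nearest the chromosome end, with 104 of the domains, thus had a median distance close to that of the other chromosomes. Its density was lower, at 11.6 against 13.9 domains per Mb, and it held gaps of 1.72 and 1.34 Mb. Close pairs were scarce. Another H3K4me3 domain lay less than 1 kb away from 30 of 319 domains (9.40%, exact interval 6.44 to 13.2%), against 37.6% of the domains on all 25 chromosomes, 39.5% of the left part and 38.0% of the other chromosomes. H3K4me3 often forms such a pair of domains on both sides of an active start site, from which the nucleosome is displaced. The 15 close pairs of the right part were spread along it, with 200 to 676 bp between their members. The narrowest lay at 63466000 to 63466199 and 63466400 to 63466599. The pair at 62339400 to 62340298 and 62340600 to 62341355 combined the widest members, 899 and 756 bp, with ranks of 52.6 and 67.1. With domains under 1 kb apart merged into 1, the density of the right part was 0.769 times that of the other chromosomes (0.684 to 0.861), against 0.642 without merging.

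**Figure D4:**
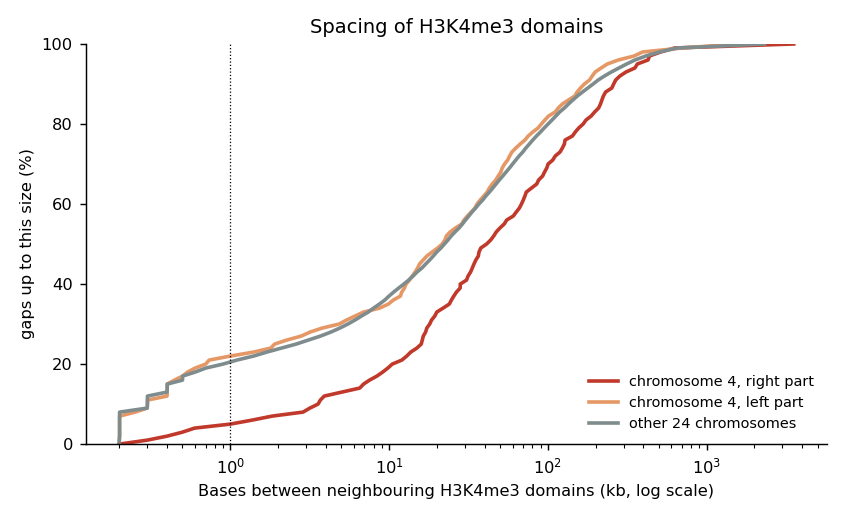
Cumulative share of gaps between neighbouring H3K4me3 domains in % (vertical axis) up to a given size in kb (horizontal axis, log scale, the dotted line marking 1 kb), with 1 line per part. The line of the right part of chromosome 4 runs to the right of the others except near its ends. Under 1 kb lie 4.72% of its 318 gaps, against 21.6% in the left part and 20.4% on the other chromosomes.

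Clusters held a smaller share of the domains in the right part than elsewhere, at each gap limit tried. A cluster was taken as 3 or more domains, each within 10 kb of the next. The right part had 5 clusters with 19 domains (5.96%, exact interval 3.62 to 9.15%), against 27.5% of the whole list, 25% of the left part and 29.0% of the other chromosomes. With gaps up to 5 kb the share was 0.940% in the right part, 18.6% in the left part and 17.6% on the other chromosomes, and with gaps up to 20 kb it was 18.2, 47.9 and 45.8%. At the limit of 10 kb the remaining domains stood alone (204) or in 48 pairs within 10 kb. The largest cluster, from 68972400 to 69023798, held 7 domains over 51.4 kb, with gaps of 6501 to 9601 bp between neighbours. From left to right its domains were 899, 799, 599, 499, 699, 799 and 899 bp wide, and their score ranks were 71.4, 56.8, 32.8, 35.3, 61.0, 70.8 and 76.9. Widths and ranks were thus highest at both edges of this cluster and lowest in its middle. The other 4 clusters had 3 domains each. The cluster from 66186100 to 66205396 had the highest ranks, 73.4 to 89.6, and widths of 899 to 1397 bp. Clusters from 68716300 to 68722098 and from 68801300 to 68814198 covered 5.80 and 12.9 kb, with median ranks of 48.7 and 61.0. The last, from 71099400 to 71115898, had a median rank of 50.2. All 5 lay beyond 66 Mb.

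Few pairs of domains lay at short range, so repeated distances there rest on small counts. The starts of 58 pairs of domains lay within 10 kb of each other. Their most frequent 100 bp classes held 4 pairs each (6.90%), at 800 to 899 bp and at 4400 to 4499 bp. The fullest class held 6.42% of 265 such pairs in the left part and 4.92% of 8371 on the other chromosomes. Over all distances between neighbours the most frequent value was 16.4 kb, which separated the starts of 5 of 318 neighbours (1.57%, exact interval 0.512 to 3.63%). These pairs began at 39985000, 55667000, 60601000, 62769600 and 69584900, and were thus scattered over the region. The same distance separated 1 of 536 neighbours in the left part (0.187%) and 11 of 17333 on the other chromosomes (0.0635%). The distance was singled out after the values were seen, from many distance classes of 100 bp, as the fullest in the right part. A lower share of that class elsewhere is therefore not a result. The fullest classes of neighbours elsewhere were at 0.6 kb in the left part (17 of 536) and at 0.5 kb on the other chromosomes (412 of 17333). Most domains start on a grid of 100 bp, so distances that fall in the same class are mostly identical.

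H3K4me3 varied along the right part. In the 4 stretches of equal length, from left to right, there were 72, 66, 77 and 104 domains. Median widths were 395.5, 399, 399 and 799 bp and median score ranks 31.6, 32.2, 34.1 and 60.8. The stretch nearest the chromosome end, from 62.6 to 71.6 Mb, thus stood above the others in number, width and rank, and it held 29 of the 34 domains with a rank above 75. The 95% intervals of its median rank (50.5 to 65.8) and median width (653 to 899 bp) contained the medians of the other chromosomes, 50.9 and 699 bp. Within it, 53 domains lay between 65 and 68 Mb, 17.7 per Mb, with a median width of 899 bp and a median rank of 73.4. The other 266 domains of the right part had a density of 8.12 per Mb, a median width of 399 bp and a median rank of 34.6. The limits of 65 and 68 Mb were set after the values were seen. In the same 4 stretches there were 4, 2, 4 and 4 H3K27ac domains, 0, 2, 1 and 1 Cdx4 peaks, and 2, 1, 1 and 1 Sall4 peaks, too few to show whether they followed this gradient.

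The 10 top-scoring domains showed the same concentration. The highest score, 907, belonged to the domain at 69142800 to 69144243, which was also the widest and stood 119001 bp from the nearest other H3K4me3 domain. The next scores were 813 at 65626500 to 65627783, 775 at 66204000 to 66205396 and 764 at 66194400 to 66195598, the last pair being members of 1 cluster. Only the domain at 50440400 to 50441663, with a score of 746 and a width of 1264 bp, lay outside the stretch nearest the chromosome end. The remaining ones started at 69646600, 66081700, 66498800, 68810600 and 66481300, with scores between 659 and 683. Their widths were 1099 to 1399 bp. Of the 4 domains wider than 1299 bp, 3 were among these 10, and the other, at 42701629 to 42703026, was 1398 bp wide with a score of 136 and a rank of 31.7. Another 6 domains shared the next width, 1299 bp, with ranks between 34.9 and 84.3, and 1 of them was among these 10. The widest gaps without an H3K4me3 domain ran from 51104900 to 54641899 (3.54 Mb), from 63531399 to 65248299 (1.72 Mb) and from 69647799 to 70988299 (1.34 Mb). The first of these was the longest such gap on any chromosome, the next being 2.32 Mb on chromosome 13. It held no interval of any list, as did the gap of 1.72 Mb, and the gap of 1.34 Mb held 1 H3K27ac domain.

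**Figure D5:**
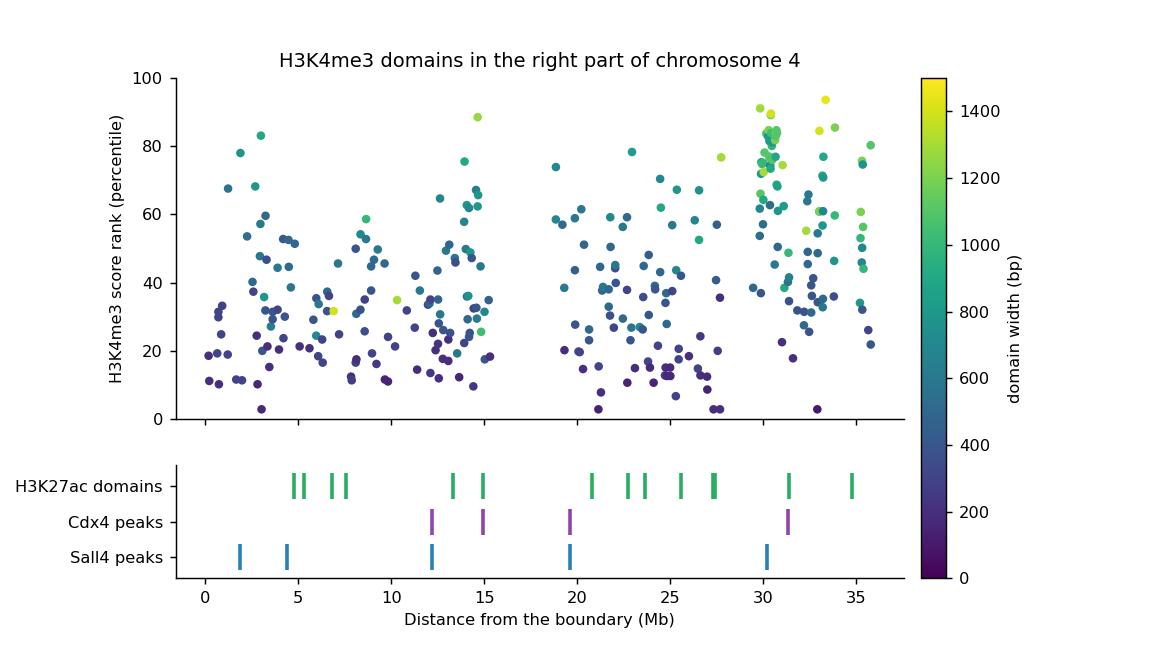
Upper panel, score rank in percentiles of the whole H3K4me3 list (vertical axis) of the 319 H3K4me3 domains by distance from the boundary in Mb (horizontal axis), coloured by width in bp; lower panel, positions of the 14 H3K27ac domains, 4 Cdx4 peaks and 5 Sall4 peaks. Wide domains with high ranks gather at about 30 Mb from the boundary, where the 53 domains between 65 and 68 Mb have a median rank of 73.4, and the empty stretch of 3.54 Mb near the middle holds no interval.

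No H3K4me3 domain of the right part overlapped an H3K27ac domain. The count was 0 of 319, which allows a share of up to 0.940%, against 5.53% of the whole list, 7.08% of the left part (38 of 537) and 5.67% of the other chromosomes (985 of 17357). Beyond the midpoints of the other 24 chromosomes the share was never below 1.60%. None of the 319 had an H3K27ac domain within 5 kb either, against 11.2% of the whole list. Both shares are bounded by the 14 H3K27ac domains of the region, a count known when it was chosen. Low values follow from that count and do not show a separation of the marks. Seen from the other mark, 0 of 14 H3K27ac domains overlapped H3K4me3, against 24.5% of the whole H3K27ac list, although with 14 domains a share of up to 21.4% is allowed by this count alone. The H3K27ac domains lay a median of 65.2 kb from the nearest H3K4me3 domain, the nearest 6.90 kb and the farthest 421 kb away. The median distance was 9.45 kb in the left part (95% interval 4.20 to 15.4) and 6.80 kb on the other chromosomes (6.10 to 7.50). No interval was computed for the median of the 14 domains. H3K4me3 domains were also sparser in the right part, and the share of this in the distances was not tested.

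The H3K27ac domains themselves ranked near the middle of their list. Their median score rank was 47.9 (95% interval 22.6 to 63.8, n = 14), against 47.5 in the left part and 49.99 on the other chromosomes, and their median width was 349 bp, against 399 bp in both. The highest-ranking domain, at 40547500 to 40548298, was 799 bp wide with a rank of 93.3. The next, at 56601600 to 56602198, was 599 bp wide with a rank of 88.7. These were the only ones over 500 bp and the only ones ranked above 75. Domains at 42632000 to 42632398 and 50748500 to 50748898 ranked at 70.4 and 63.8, and the domain at 50748500 contained a Cdx4 peak. Ranks between 46.7 and 54.7 belonged to the domains that started at 43362300, 58504100, 67170000 and 70567000. Those that started at 61395500, 63208000 and 63109600 ranked at 41.1, 39.2 and 38.5. The lowest ranks, 22.6, 22.2 and 4.85, were at 59456900, 41119800 and 49095100. The domain at 67170000 to 67170199 was the nearest to an H3K4me3 domain, with 6.90 kb between them.

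The 9 factor peaks of the right part fell at 7 places, since some of them lay together. At 47969787 to 47969886 a Cdx4 peak with a rank of 80.3, the highest of its list in the region, shared 87 bp with the Sall4 peak at 47969800 to 47969899, which at 47.9 was also the highest-ranking Sall4 peak of the region. The nearest domain of either mark was an H3K4me3 domain 57.8 kb away. At 55406364 a Cdx4 peak with a rank of 4.42 was separated by 269 bp from a Sall4 peak at 55406733 with a rank of 15.9. The Cdx4 peak at 50748636 to 50748735, with a rank of 76.2, lay wholly within an H3K27ac domain. The Cdx4 peak at 67144456 to 67144555, with a rank of 18.6, shared 56 bp with an H3K4me3 domain of 999 bp. That domain was the only H3K4me3 domain of the right part with a factor peak, so 1 of 319 (0.313%) overlapped Cdx4, against 2.76% of the whole list. For Sall4 it was 0 of 319, which allows up to 0.940%, against 3.59%. With 4 Cdx4 and 5 Sall4 peaks in the region, neither share could reach that of the whole list wherever the peaks lay. These shares therefore restate the peak counts from which the region was chosen. Seen from the peaks, 1 of 4 Cdx4 peaks overlapped an H3K4me3 domain. The same share over all Cdx4 peaks was not computed, and 4 peaks are too few for a comparison. The other Sall4 peaks, at 37650188, 40180943 and 65971180, had ranks of 10.8, 4.85 and 2.16 and overlapped no interval. The median Sall4 rank of the 5 peaks was 10.8 and that of the 4 Cdx4 peaks 47.4, and with so few peaks neither was set against the rest of its list.

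Windows with H3K4me3 and nothing else were common in the right part. This largely restates the interval counts from which the region was chosen and is not a separate result. Of its 36 windows of 1 Mb, 13 held at least 5 H3K4me3 domains and no interval of the other 3 lists (36.1%, exact interval 20.8 to 53.8%), against 2.18% of all 1332 windows on chromosomes. The left part, with the window across the boundary, had 2 of 36 and the other chromosomes 14 of 1260 (1.11%). The fullest was the window at 66000001 to 67000000 with 29 H3K4me3 domains, and the one at 68000001 to 69000000 held 20. Among windows of the other chromosomes the most H3K4me3 domains, 76 and 71, were in adjacent windows on chromosome 22 from 1000001 to 3000000, followed by 49 on chromosome 14 at 32000001 to 33000000. The windows on chromosome 22 together held 3 H3K27ac domains and 2 factor peaks beside 147 H3K4me3 domains. Close pairs were few in both regions, with 9.40% of domains on chromosome 4 and 12.2% on chromosome 22 (18 of 147) less than 1 kb from another. So were domains over 1500 bp, at 0 of 319 on chromosome 4 and 2 of 147 (1.36%) on chromosome 22. The regions differed in median width (499 bp on chromosome 4, against 999 bp on chromosome 22), median score rank (37.7, against 65.8) and median spacing (41.1 kb, against 8.22 kb). The window on chromosome 14 held 13 H3K27ac domains, 30 Sall4 peaks and 15 Cdx4 peaks, and so was unlike either.

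The deposited coordinates differed in a further way. Most domains start and end on a grid of 100 bp. An end off this grid was found for 84 of 319 H3K4me3 domains of the right part (26.3%, exact interval 21.6 to 31.5%), against 9.73% of the whole list, 10.8% of the left part and 8.96% of the other chromosomes. On scaffolds not placed on a chromosome the share was also raised, at 15.9% (189 of 1188). Beyond the midpoints of the other 24 chromosomes the share ran between 5.91 and 13.4%. In the 4 equal stretches of the right part it was 26.4, 30.3, 24.7 and 25%. Domains with such an end had a median width of 388.5 bp (95% interval 346 to 493), against 499 bp (499 to 594) for those on the grid, and their median ranks were 35.4 (29.5 to 45.9) and 37.9 (35.1 to 42.1). How the ends were set is not stated in the labels or files, and its part in the widths was not tested. At 300 bp or less, 31.9% of the right part and 7.83% of the other chromosomes had such an end.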

How the data were processed

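For each target the authors deposited 1 list of intervals from 1 library. Each interval has a score, deposited by the authors without a stated meaning, and it served here for ranks within its own list alone. The names of Cdx4 and Sall4 peaks start with GPS, a peak caller, per the interval names in the files. The submitters' processing notes name CASAVA 1.4 and Bowtie 0.12.7 without roles. Thresholds, depth, use of the inputs and the treatment of reads that map to several places are not stated in the labels or files. Other deposited columns are coordinates in bp of assembly Zv8, per the scaffold names in the files, taken as 1-based and inclusive of both ends.

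Parts of the genome, overlaps of at least 1 bp, gaps between neighbours, clusters and 1 Mb windows were computed with Python 3.11.15 (pandas 2.3.3, numpy 2.4.6, scipy 1.17.1; figures with matplotlib 3.10.9) and tested on simulated data. Shares have exact (Clopper-Pearson) 95% intervals, medians binomial order-statistic ones, density ratios conditional binomial ones, and a count of 0 allows 3 counts of the total. Named positions were the 10 top-scoring and 5 widest H3K4me3 domains, the 5 largest clusters, the 3 widest gaps, domains at the boundary, all members of the other lists, and the 3 fullest windows elsewhere. Domains tied in width were counted together, and the close pairs were named after their values were seen. The region, its boundary and these rules were chosen with earlier results of these data known. No sequence or annotation of Zv8 was used here.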

Additional observations from a re-analysis of the deposited data

How the results depend on the processing

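With 1 library per target, no spread between libraries can be given and no library can be left out. No paired analysis was possible because the replicate numbers in the labels belong to the inputs alone. Depth is unknown, so an interval missing from a list is not a missing mark or factor. Moving the boundary by 1 Mb either way left all of the values compared within their counting intervals. This shift could change little. No H3K27ac domain or factor peak lay within 1 Mb of the boundary, so those counts could not change. The 319 H3K4me3 domains became 331 with the boundary lower and 311 with it higher. The ratio of H3K4me3 density to that of the other chromosomes, 0.642, was 0.416 among domains ranked above the median score, 0.454 for domains of at least 500 bp and 0.769 after merging domains under 1 kb apart. The median width of 499 bp was 811 bp above the median score. Without 65 to 68 Mb, an alternative chosen after seeing the data, it was 399 bp, and the median score rank of 37.7 was 34.6. The share of domains in clusters, 5.96%, was 0.940% with gaps up to 5 kb and 18.2% with gaps up to 20 kb. The fullest class of short distances between domains, with 4 pairs, held 7 pairs in 200 bp classes and 1 pair, at another distance, above the median score. The ratio for H3K27ac, 0.119, was 0.211 with the boundary at 27 Mb, and that for both factors' peaks together, 0.0230, was 0.0841. These limits at 27 Mb were also chosen after seeing the data. With peaks above the median score of each list the factor ratio was 0.0100, from 2 peaks. The share of H3K4me3 domains overlapping H3K27ac was 0.533% with the boundary at 27 Mb. Under the other 5 of 6 alternatives it was 0, which was fixed in advance. All but 1 of them took fewer domains or a stricter overlap, or added a stretch without H3K27ac, so the main count of 0 fixed theirs. The remaining one allowed a distance of 1 kb, where the nearest domains of the marks lay 6.90 kb apart.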
